A study of Mus musculus with 11 samples.

Results

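The comparison described here is that of the library labelled TKO_602 with the library labelled TKO, both of mouse embryonic stem cells at day 0. Its members are all genes of the deposited gene count table that reached 1 CPM (read counts scaled to a common library total) in either library, which left 13748 of 25239 genes. The series holds 11 samples, of which 3 are RNA libraries (TKO, TKO_FL and TKO_602, 1 library each) and 8 are immunoprecipitations that are not analysed here. All 3 RNA libraries came from cells of the J1 line on mitomycin C-treated mouse embryonic fibroblasts, in medium with 10% fetal bovine serum and LIF, the cytokine that holds mouse stem cells in self-renewal. Poly(A) RNA was enriched on oligo(dT) beads and sequenced from both ends. Other samples of the series spell the TKO genotype as DNMT TKO, which in this field stands for knockout of Dnmt1, Dnmt3a and Dnmt3b, and all 3 group names carry it. The labels do not say what FL and 602 stand for or whether a genotype is 1 clone.

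DNA methyltransferases place methyl groups on cytosine, mostly in CpG dinucleotides. Dnmt1 copies the pattern after replication, and Dnmt3a and Dnmt3b set new marks with the help of Dnmt3l. Mouse embryonic stem cells survive without this methylation, and promoters of germline genes are among the best known sites that it keeps silent. In serum and LIF such cultures are mixed, with naive cells beside cells that lean towards later pluripotency or towards primitive endoderm, and their state is set by LIF, Wnt, FGF and BMP signals.

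The gene totals came to 21133660 reads in TKO, 19573689 in TKO_FL and 43158441 in TKO_602. Per the file headers the alignment of TKO_602 lay in another folder than those of TKO and TKO_FL, so genotype, library and processing run cannot be told apart in any value below. With 1 library per genotype there is no replicate check, no test and no p-value. Intervals are exact 95% binomial intervals of the log2 ratio of fragments, which cover counting error only. They are of the plain ratio, while log2 differences are of log2(CPM + 1). At low levels a difference can therefore lie at the edge of its interval or outside it. All 10 stem cell markers fixed for the check of the label (Pou5f1, Sox2, Nanog, Zfp42, Esrrb, Sall4, Tdgf1, Dppa5a, Utf1 and Fgf4) were read in both libraries, with a lowest level of 164 CPM, and summed to 6290, 7644 and 7487 CPM in TKO, TKO_FL and TKO_602 in that order. The 10 feeder markers summed to 434, 255 and 407 CPM, the 5 trophoblast markers to 2.32, 1.14 and 0.87 CPM, and the 4 blood markers to 3.04, 2.81 and 1.85 CPM. Among the defining markers of those types, Tpbpa of trophoblast and Hbb-bh1 of blood were at 0 in both libraries, Elf5 was at 0 in TKO and Cdx2 at 0 in TKO_602. Values for single genes are given throughout in the order TKO, TKO_FL and TKO_602. TKO_FL is set beside the pair as a level only.

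Of the 13748 genes, 2614 differed at least 2-fold between TKO_602 and TKO on the scale of log2(CPM + 1), which is 19.0% of those tested. The 1506 genes higher in TKO_602 made up 11.0% and the 1108 lower genes 8.06%. At 4-fold there were 204 higher and 126 lower genes, and at 8-fold 22 and 13. The counting interval lay wholly beyond 2-fold for 1020 of the higher and 828 of the lower genes. The median difference over all tested genes was 0.03 in log2, and 11134 genes stayed within 2-fold. Below, genes past this 2-fold line are called. Alternatives were a larger pseudocount, other scalings and thinning of TKO_602 to the read total of TKO. Where the call of a gene shown with its level ended under one of them, this is said. Counts of list members include calls that ended, and 116 of 368 listed or named called genes ended with a pseudocount of 5. Abundant genes leaned the other way: of 971 genes with a mean of at least 200 CPM, 2.78% were higher and 9.17% lower, with a median of -0.17. Among the 3103 genes between 5 and 20 CPM 17.3% were higher and 9.64% lower, with a median of 0.15. By exonic length the median was -0.06 for genes of 1000 to 2000 bases and 0.11 for those of 8000 bases or more, and the 39 genes under 200 bases had -0.18. Over the other assembled chromosomes the medians ran from -0.06 on X to 0.10 on 17, and the 8 tested genes of Y had -0.59.

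**Figure D1:**
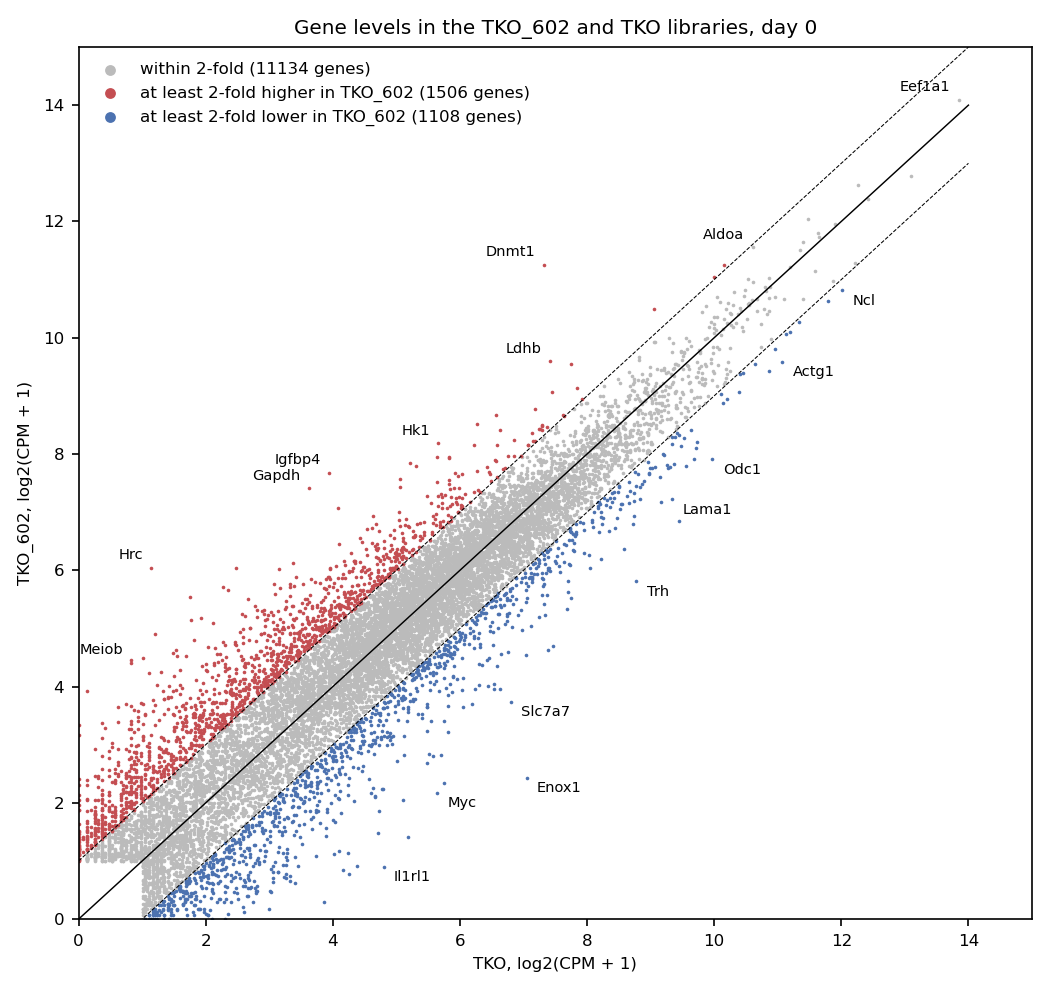
Level of each of 13748 tested genes in the TKO library (horizontal axis) and the TKO_602 library (vertical axis), both as log2(CPM + 1), 1 library per genotype. The solid line marks equal levels and the dashed lines a 2-fold difference. The 1506 higher genes lie mostly at low and middle levels, and at the abundant end Ncl and Actg1 lie below the lower dashed line while Eef1a1 lies above the solid one.

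Dnmt1, Dnmt3a and Dnmt3b were read in all 3 libraries, TKO included. Dnmt1, the maintenance methyltransferase (chr9:20907206-20959888, minus strand in mm10), stood at 159, 3364 and 2444 CPM, a log2 difference between TKO_602 and TKO of 3.93 (interval 3.87 to 4.01). After Eef1a1 it had the largest gain in CPM of all tested genes. Gene totals do not tell reads of an introduced Dnmt1 from reads of the endogenous locus. Dnmt3a lay inside the line at 35.2, 36.1 and 27.8 CPM. Reads of Dnmt1, Dnmt3a and Dnmt3b in TKO do not check its label, since the part of each gene that is altered is not given in the labels. Dnmt3b and Dnmt3l were lower in TKO_602, at 71.7, 34.0 and 11.9 CPM and at 658, 408 and 226 CPM. Of 19 tested genes of this list 2 were higher and 2 lower, and the fourth past the line was Apobec1, a cytidine deaminase, at 6.13, 6.29 and 18.5 CPM. Uhrf1, the partner that brings Dnmt1 to hemimethylated DNA, lay inside the line at 581, 504 and 456 CPM.

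Hrc, a calcium-binding protein of the sarcoplasmic reticulum (chr7:45335269-45338972, plus strand), had the largest log2 difference of all tested genes, 4.90, with 25, 126 and 2911 reads and 1.21, 6.55 and 65.0 CPM. Atp1b2, the beta 2 subunit of the sodium pump, stood at 15.9, 23.6 and 133 CPM. Atp2b2, a calcium pump of the plasma membrane, had 2, 55 and 634 reads, a log2 ratio with an interval of 4.71 to 12.50. Both pump genes were lowest in TKO, between in TKO_FL and highest in TKO_602. Other genes at this end included Lrrc31 at 1.30, 13.2 and 28.9 CPM, Micall2, which links Rab proteins to actin, at 4.59, 5.72 and 64.9 CPM, Gstm3, a glutathione transferase, at 3.81, 9.98 and 51.6 CPM, and Aurkc, the meiotic Aurora kinase, at 4.10, 15 and 49.5 CPM. Susd5 and Fhad1 had no read in TKO against 410 and 359 reads in TKO_602, which is at least 31.6-fold and at least 27.7-fold higher when TKO is set to a floor of 3 fragments in the library. Of all tested genes 35 were at 0 in TKO and 15 at 0 in TKO_602. The floor was 0.290 CPM in TKO and 0.134 CPM in TKO_602, so a 0 is reached more readily in TKO. Each of these genes passed the filter only through the other library.

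At the other end stood Enox1, a cell-surface oxidase gene (chr14:77156763-77721763, plus strand), with 2720, 1834 and 197 reads and 131, 95.4 and 4.40 CPM, a log2 difference of -4.62 (interval -5.22 to -4.61). Il1rl1, the receptor of interleukin 33, followed at 26.8, 13.9 and 0.870 CPM, and Soga3 at 35.4, 8.73 and 1.67 CPM. The neuronal transcription factor gene Pou4f2 stood at 18.1, 11.6 and 0.714 CPM and Wt1, the Wilms tumour factor of kidney and gonad, at 16.9, 8.63 and 0.803 CPM. Trh, which encodes the precursor of thyrotropin-releasing hormone, was an abundant member of this end, at 436, 861 and 55.1 CPM, and was highest in TKO_FL. Among the genes at 0 in TKO_602, the interferon-induced GTPase gene Gbp3 had 68 reads in TKO, at least 24.5-fold lower in TKO_602, a call that ended with a pseudocount of 5. The 2-fold line itself fell between close values: Klc2 and Cadm1 lay just past it at 19.3, 34.2 and 39.6 CPM and 31.5, 60.3 and 64.0 CPM, calls that both ended with a pseudocount of 5, with median-of-ratios or upper-quartile factors and after thinning, and Hacl1 and Ice2 just short of it at 5.65, 10.9 and 12.3 CPM and 13.5, 17.3 and 27.9 CPM. On the other side Podxl and Myo1g lay just past it at 155, 52.7 and 77.2 CPM and 8.01, 6.50 and 3.50 CPM, calls that both ended with a pseudocount of 5 and by library size alone, and that of Podxl also after thinning, and Tuba4a and Bmp8b just short at 173, 114 and 86.2 CPM and 1.98, 1.40 and 0.491 CPM.

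To place these genes, 55 lists of pathway and cell type genes were read, with 1371 tested genes between them. Of these, 146 were higher in TKO_602 (10.6%) and 178 lower (13.0%), against 11.0% and 8.06% of all genes. Every list count below is to be read beside those shares of all genes. The lists and their choice are descriptive, and no list was tested as a set.

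**Figure D2:**
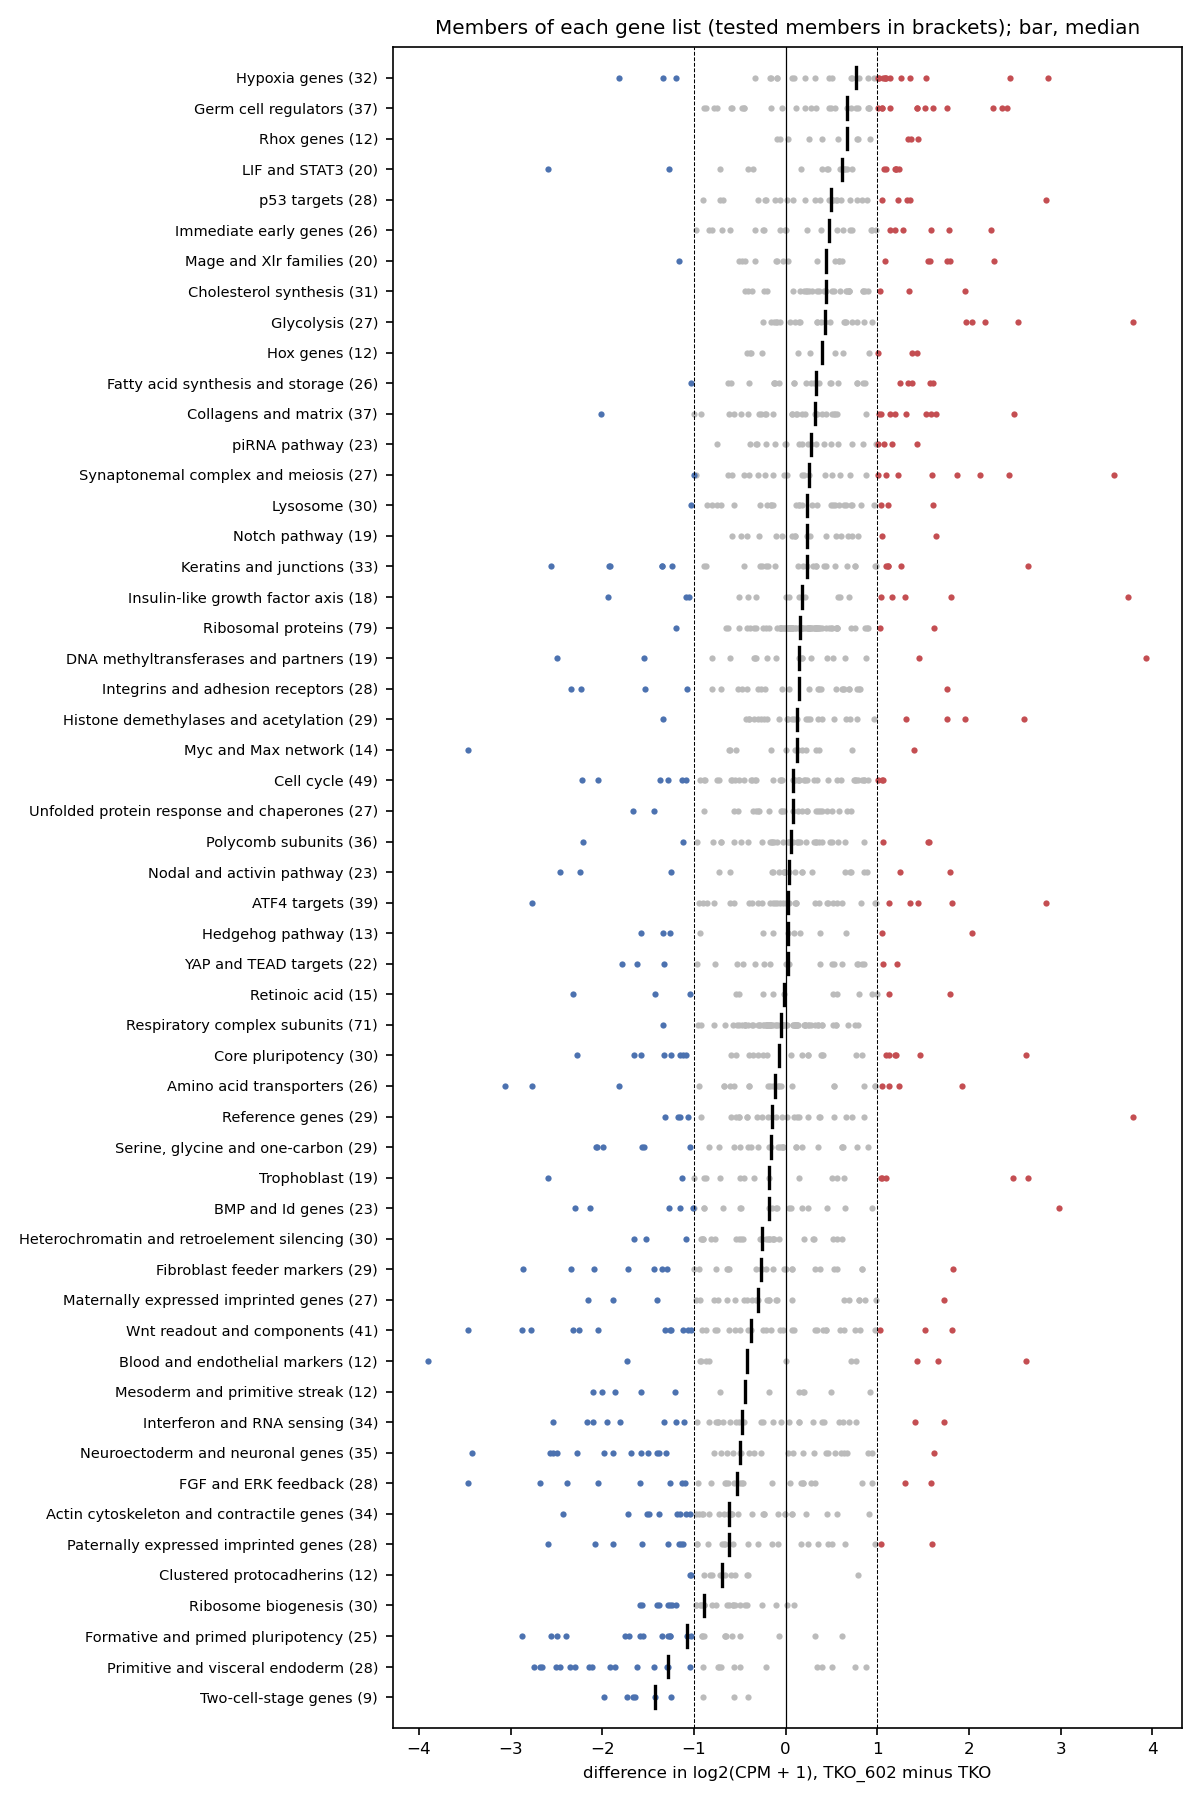
Difference in log2(CPM + 1) between TKO_602 and TKO for each tested member of the gene lists with 5 or more tested members, 1 dot per gene. Dots are red where at least 2-fold higher and blue where at least 2-fold lower in TKO_602, the black bar is the list median, and lists run from the lowest median at the bottom (Two-cell-stage genes, -1.43) to the highest at the top (hypoxia genes, 0.76).

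Genes that make ribosomes leaned lower in TKO_602. Of 30 tested ribosome biogenesis genes 8 were at least 2-fold lower, none was 2-fold higher, and 28 had a difference below 0, with a median of -0.89 beside 0.03 for all genes. Heatr1 and Utp20, parts of the machinery that processes the small subunit's RNA, stood at 453, 339 and 149 CPM and at 371, 254 and 140.2 CPM. Bop1, needed for large-subunit processing, stood at 181, 127 and 68.9 CPM, and Polr1b, a core subunit of RNA polymerase I, at 184, 139.7 and 74.7 CPM. Rrp12 had 162, 157 and 67.6 CPM and Nop16 106, 72.8 and 43.9 CPM. Nucleolin, the product of Ncl, is an abundant nucleolar protein, and Ncl lost more CPM than any other tested gene, at 4129, 3390 and 1808 CPM (log2 difference -1.19, interval -1.21 to -1.17). The remaining lower member was Srm, a gene of spermidine synthesis that is counted again among the supply genes below. Npm1, which encodes nucleophosmin, had 4746, 4241 and 2494 CPM, just inside the line. Dkc1, the pseudouridine synthase of small nucleolar particles, and Noc2l were the 2 members without a lower level, at 364, 317 and 367 CPM and 142, 129 and 151 CPM. The list's members are abundant, and genes of at least 200 CPM as a whole had a median of -0.17.

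The ribosomal protein genes lay close to 0. Of 79 tested members 2 were higher, 1 was lower and 60 had a difference above 0, with a median of 0.16 (0.24 by library size alone and 0.11 with upper-quartile factors). Rps26 and Rpl7 lay flat at 1503, 1662 and 1506 CPM and 1628, 1650 and 1627 CPM. Rpl17 stood at 173, 547 and 535 CPM and Rps28 at 242, 228 and 494 CPM, and Rpl29 at 13.8, 10.7 and 5.44 CPM was the lower member. Many ribosomal protein genes have near-identical processed copies, and reads that map to several places are not in the counts, so single members are uncertain. Of the translation factor genes among the largest gains and losses in CPM, Eef1a1 and Eef2, the elongation factors, lay inside the line at 14782, 17518 and 17506 CPM and 4917, 6338 and 6338 CPM. Eif4a2 was higher at 532, 613 and 1437 CPM, and on the lower side Eif5a at 1980, 1620 and 891 CPM and Eif4g2 at 2238, 1702 and 1067 CPM. The call of Rpl29 ended with a pseudocount of 5, that of Rps28 with upper-quartile factors and that of Eif4g2 by library size alone.

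Supply genes for nucleotides, methyl groups and polyamines included 6 lower members and no higher one among 29 tested (median -0.16). Odc1, the first enzyme of polyamine synthesis, stood at 1003, 770.1 and 239.6 CPM, and Srm, which makes spermidine, at 353, 226 and 118 CPM. Mat2a, which makes the methyl donor S-adenosylmethionine, stood at 574, 483 and 144 CPM. Tyms, which makes thymidylate, had 98.6, 84.2 and 22.7 CPM, and Tdh, the threonine dehydrogenase on which mouse stem cells draw for one-carbon units, 567, 668 and 194 CPM. Gcsh of the glycine cleavage system had 141, 112 and 68.3 CPM. Phgdh, the first enzyme of serine synthesis, lay flat at 132, 176 and 129 CPM. The call of Gcsh ended with a pseudocount of 5 and by library size alone. In all 6 lower members the TKO_FL level was above that of TKO_602.

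Glycolytic genes leaned higher. Of 27 tested members 5 were at least 2-fold higher and none lower, 21 had a difference above 0, and the median was 0.43. Hk1, the hexokinase of most tissues, stood at 49.6, 89.0 and 291 CPM (log2 difference 2.53, interval 2.42 to 2.68). Ldhb, the lactate dehydrogenase subunit typical of heart, stood at 169, 493 and 771 CPM, Aldoc, the brain-type aldolase, at 20.9, 41.3 and 89.0 CPM, and Eno2, the neuronal enolase, at 2.17, 2.81 and 11.4 CPM. Other forms of these enzymes lay inside the line at 1350, 1417 and 1452 CPM for Ldha and 1560, 2115 and 3002 CPM for Aldoa, and the pyruvate kinase gene Pkm had 3836, 4351 and 3950 CPM. The remaining higher member was Gapdh, at 11.3, 15.4 and 169.7 CPM. Gapdh has many processed copies in the mouse genome and its value is uncertain for that reason.

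Hypoxia genes had the highest list median, 0.76, with 12 higher and 3 lower members of 32 tested. Ndufa4l2, a mitochondrial protein made at low oxygen, stood at 7.92, 34.1 and 63.7 CPM, Car9, the cell-surface carbonic anhydrase, at 0.772, 2.13 and 8.66 CPM, and Vegfa, the vascular growth factor, at 29.1, 34.8 and 85.8 CPM. Ak4, a mitochondrial adenylate kinase, stood at 165, 271 and 353 CPM and Bnip3, a mitophagy receptor, at 134, 202 and 283 CPM. The lower members were Kdm3a, a histone H3 lysine 9 demethylase, at 303, 286 and 119 CPM, Epas1, which encodes HIF-2 alpha, at 66.9, 35.4 and 28.5 CPM, and Anxa1, at 61.1, 30.3 and 16.6 CPM. Slc2a1 and Pdk1, classic targets in the same list, lay inside the line at 580.1, 707 and 542 CPM and 316, 364 and 282 CPM. Respiratory complex genes were flat, with 71 tested, none higher, 1 lower (Atp5g1, 139, 106 and 54.8 CPM) and a median of -0.05.

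Lipid genes lay mostly above 0. Of 31 cholesterol genes 3 were higher and none lower, beside 11.0% higher and 8.06% lower of all tested genes. Of the cholesterol genes 26 had a difference above 0 (median 0.44). Abcg1 and Abca1, the sterol exporters, stood at 14.2, 24.0 and 58.1 CPM and 11.4, 10.3 and 24.4 CPM, and Msmo1, a demethylating enzyme of the synthesis pathway, at 84.9, 98.2 and 218 CPM. Among 26 fatty acid genes 5 were higher and 1 lower (median 0.34). Cpt1a, which admits fatty acids to mitochondria, stood at 50.8, 103 and 157 CPM, Cpt2 at 11.8, 21.4 and 31.3 CPM, Fabp3, a fatty acid carrier, at 94.7, 195 and 283 CPM and Scd1, the desaturase, at 60.3, 63.2 and 144 CPM. Fasn, the fatty acid synthase, lay inside at 673, 667 and 445 CPM, and the scavenger receptor Cd36 was the lower member at 3.33, 1.14 and 1.12 CPM. With a pseudocount of 5 the calls of Abca1 and Cd36 ended, as did that of Abca1 with upper-quartile factors and that of Cd36 by library size alone.

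Amino acid transporter genes went both ways, with 4 higher and 3 lower of 26. Of all tested genes 11.0% were higher and 8.06% lower. Slc7a7, a carrier of cationic amino acids, stood at 110.2, 82.2 and 12.3 CPM (log2 difference -3.06, interval -3.36 to -2.97), and Slc7a3, another of the same kind, at 175, 138 and 24.9 CPM. The third of these carriers, Slc7a1, lay flat at 104, 93.3 and 94.5 CPM. Higher were the glutamate carrier Slc1a1 at 11.0, 18.4 and 44.5 CPM and the neutral amino acid carriers Slc1a5 at 31.4, 35.8 and 75.6 CPM and Slc1a4 at 13.2, 24.7 and 30.2 CPM, whose call ended with a pseudocount of 5. Of 39 tested targets of ATF4, the factor of the amino acid stress response, 5 were higher and 1 lower, with a median of 0.03. Gdf15, a stress hormone, was the highest at 2.22, 3.59 and 22.1 CPM, while Asns and Psat1, amino acid synthesis genes of the list, had 158, 236 and 197 CPM and 231, 354 and 250.3 CPM. The unfolded protein response list had 27 tested, none higher and 2 lower, and its lower members were the heat shock genes Hsph1, at 325, 245 and 102 CPM, and Hspa1b, at 21.5, 11.5 and 7.34 CPM. Of 28 p53 targets 5 were higher and none lower (median 0.49), among them Pmaip1, a death gene, at 23.1, 36.4 and 60.7 CPM, while Cdkn1a stood at 74.8, 119.5 and 134 CPM and Trp53 itself at 493, 542 and 265 CPM.

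**Figure D3:**
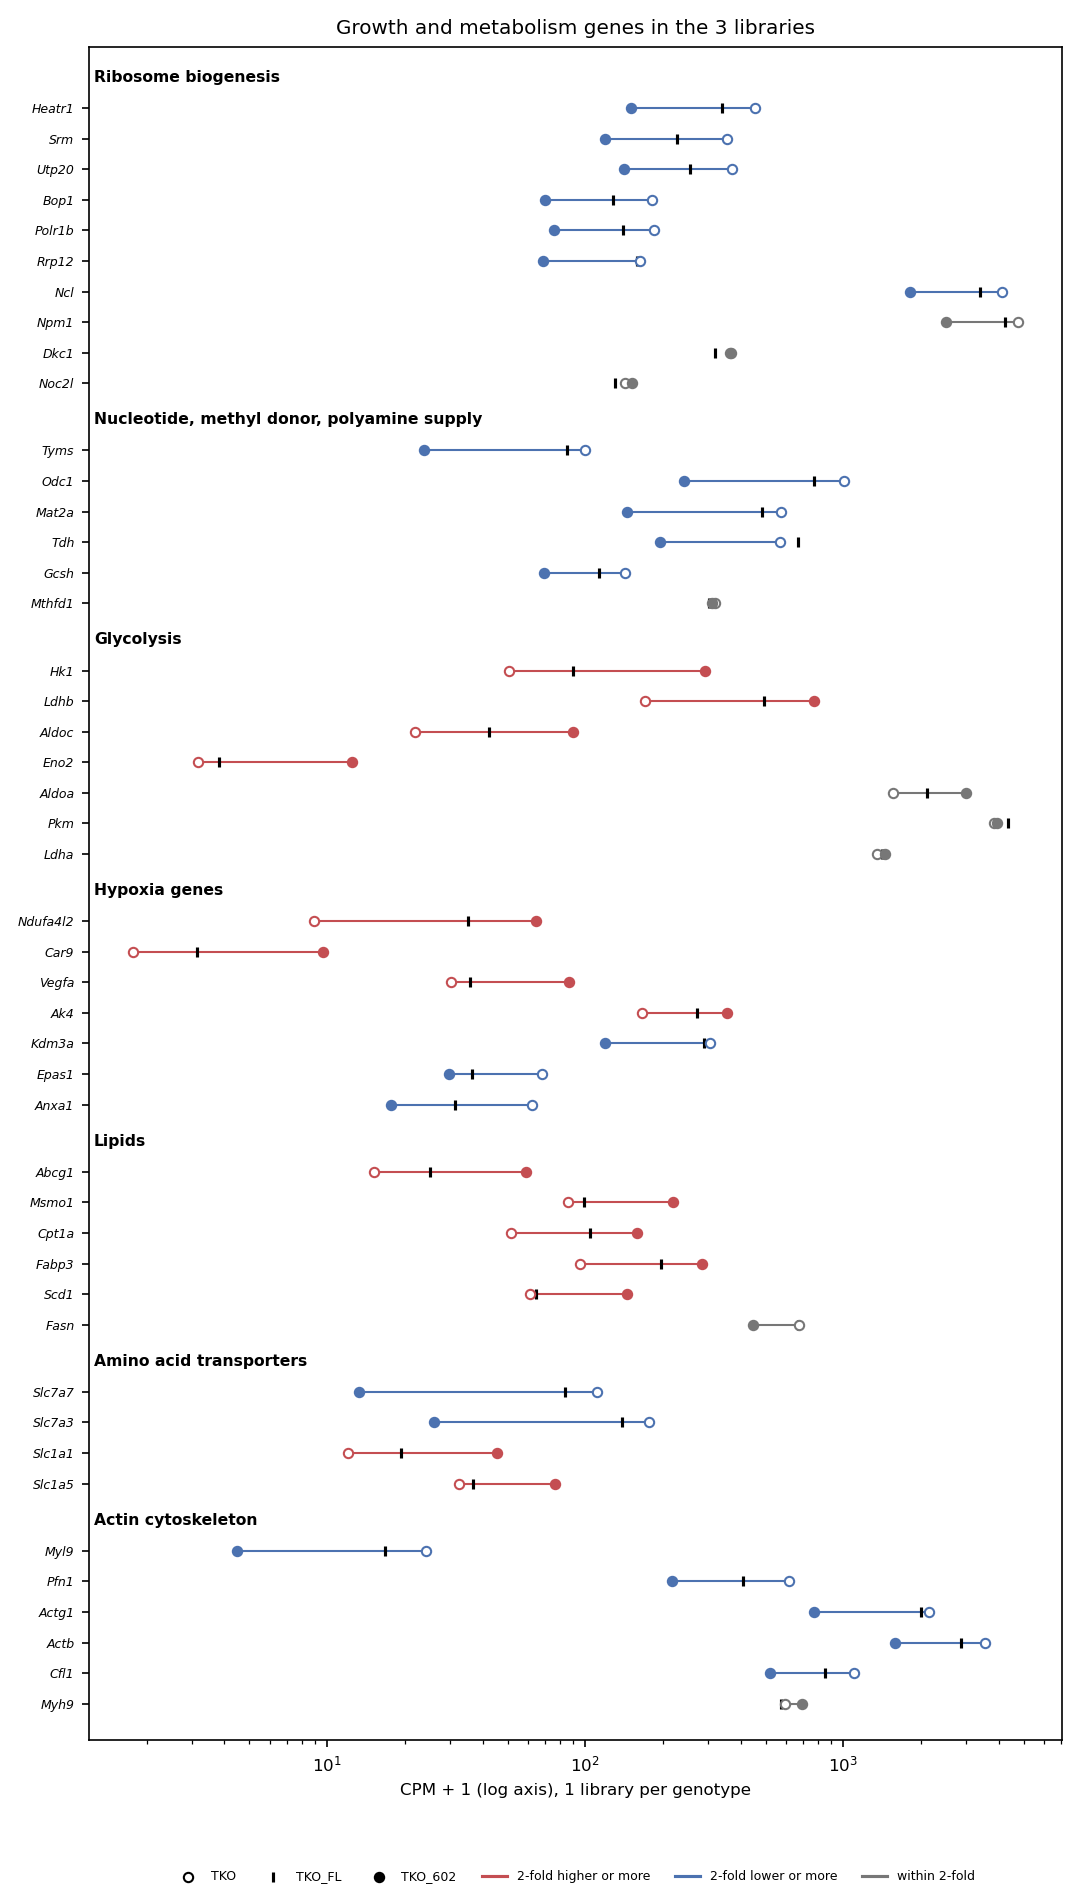
CPM + 1 on a log axis for growth and metabolism genes in TKO (open circle), TKO_FL (tick) and TKO_602 (filled circle), 1 library each. Red and blue lines mark genes at least 2-fold higher or lower in TKO_602 than in TKO, grey lines genes inside 2-fold. Ribosome biogenesis genes other than Dkc1 and Noc2l and actin genes other than Myh9 lie lower in TKO_602, and Hk1, Ldhb and Ndufa4l2 lie higher.

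Actin genes leaned lower. Of 34 tested members of the actin list 9 were at least 2-fold lower, none was higher, 25 lay inside the line and 6 had a difference above 0, and the median was -0.61. Actb and Actg1, the non-muscle actins, stood at 3538, 2857 and 1588 CPM and 2149, 2009 and 766 CPM. Pfn1, which feeds actin monomers to filament ends, had 617, 407 and 216 CPM, Cfl1, which severs filaments, 1105, 851 and 521 CPM, and Flna, a crosslinker, 644, 427 and 311 CPM. Myl9 and Acta2, of contractile cells, had 23.2, 15.8 and 3.48 CPM and 58.4, 18.5 and 17.0 CPM. Myh9, the heavy chain of non-muscle myosin, lay inside the line at 592, 573 and 692 CPM, as did Srf, the factor that drives many actin genes, at 115, 148 and 96.3 CPM. Actb is often used as a reference gene, and of 29 reference genes 4 were lower and 1 higher, the lower ones being Tuba1b at 1336, 1062 and 537 CPM, Snrpd3 at 198, 167 and 87.0 CPM, Actb and Ppia at 2571, 2353 and 1232 CPM. By library size alone the calls of Flna and Ppia ended. Hprt and Tbp lay flat at 161, 151 and 149.8 CPM and 42.6, 40.6 and 41.4 CPM.

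Wnt signalling genes held many of the lower values. Wnt ligands stabilise beta-catenin, which acts on DNA with factors of the Lef and Tcf family. Of 41 tested members 12 were lower and 3 higher, with a median of -0.38. Among the targets, Myc, a driver of growth genes (chr15:61985341-61990361, plus strand), had 1009, 683 and 157 reads and stood at 48.7, 35.5 and 3.50 CPM (log2 difference -3.46, interval -4.17 to -3.46). Lef1 stood at 50.9, 42.4 and 6.07 CPM, Sp5, a direct target, at 7.77, 6.40 and 0.759 CPM, Axin2, the feedback scaffold, at 19.0, 14.8 and 7.41 CPM and Notum, a secreted enzyme that inactivates Wnt, at 46.9, 41.2 and 5.98 CPM. Ccnd1, cyclin D1, had 150.4, 98.7 and 35.6 CPM. Beta-catenin itself, from Ctnnb1, lay inside the line at 846, 874 and 639 CPM. The higher members were Sfrp1, a secreted antagonist, at 32.1, 52.1 and 115 CPM, Tcf7 at 64.7, 95.5 and 133 CPM and Cdx1, with no read in TKO and 84 in TKO_602, at least 6.47-fold higher. With a pseudocount of 5 the calls of Axin2, Cdx1 and Tcf7 ended, and with upper-quartile factors that of Tcf7. Of the other Wnt genes, the lower calls of Dkk1, Fzd2, Tcf7l1, Wls, Wnt4 and Wnt8a also ended with a pseudocount of 5. Those of Tcf7l1 and Wls ended by library size alone too.

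The relatives and partners of Myc lay mostly inside the line. Mycn, the family member that stem cells hold at a high level, stood at 288, 430.1 and 189 CPM and Mycl at 18.8, 16.1 and 23.9 CPM. Max, the shared partner, had 79.8, 88.7 and 71.5 CPM and Mga, a repressor partner of Max, 359, 369.7 and 420.3 CPM. Of 14 tested members of this network Myc was the lower one and Mlxipl, the glucose-responsive factor, the higher one at 12.4, 19 and 34.5 CPM. The median of the list was 0.12.

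FGF genes, with Myc and Ccnd1 counted here too, had 8 lower and 2 higher of 28 tested members and a median of -0.53. Among ligands, Fgf17 stood at 44.8, 28.1 and 6.14 CPM and Fgf15 at 24.3, 25 and 7.43 CPM, while Fgf4, the ligand that stem cells make themselves, had 164, 217 and 294 CPM. The ETS factor Etv1, an ERK target, stood at 23.9, 14.4 and 3.77 CPM, and its relatives Etv4 and Etv5 lay inside the line at 109.9, 64.5 and 69.0 CPM and 703, 839 and 497 CPM. The feedback inhibitors Spry4 and Dusp6 were also inside, at 144, 242 and 73.5 CPM and 73.0, 64.2 and 46.1 CPM. The immediate early gene Egr1 went the other way, at 145, 194 and 438 CPM, and with it Fos at 76.1, 159 and 364 CPM and Fosb at 43.9, 100.3 and 154 CPM. Of 26 immediate early genes 6 were higher and none lower (median 0.48).

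The BMP list had 5 lower and 1 higher of 23. Id1 and Id3, which BMP induces in serum, stood at 45.9, 67.4 and 9.66 CPM and 31.7, 56.8 and 12.5 CPM, and were highest in TKO_FL. Grem1, a secreted BMP antagonist, had 19, 7.07 and 3.10 CPM. The ligands differed in direction, with Bmp4 at 20.1, 11.9 and 9.51 CPM and Bmp7 at 3.33, 9.05 and 33.2 CPM, and the call of Bmp4 ended with a pseudocount of 5, by library size alone and after thinning. Bmp7 had the larger difference of the pair (log2 difference 2.98, interval 2.84 to 3.88). In the Nodal list 3 were lower and 2 higher of 23. Inhba, the activin A subunit, stood at 43.7, 42.2 and 8.46 CPM, its antagonist Fst at 13.9, 7.38 and 1.70 CPM and Gdf3 at 139.6, 149 and 58.2 CPM, while Nodal itself lay flat at 80.5, 129 and 76.4 CPM.

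LIF and STAT3 genes had a median of 0.61, with 6 higher and 2 lower of 20. Socs3, the feedback inhibitor, stood at 108, 165 and 249 CPM, Jak2 at 16.2, 21.0 and 39.6 CPM and Lif at 7.10, 16.2 and 16.3 CPM, the last inside the line with a pseudocount of 5. The naive pluripotency factors that STAT3 induces, Klf4 and Tfcp2l1, had 155, 169 and 356 CPM and 156, 280.2 and 361 CPM. The lower members were Gbx2, a homeobox target of LIF, at 55.3, 29.3 and 8.32 CPM, and Bcl3, at 66.0, 32.8 and 26.8 CPM. Stat3 itself had 167, 138 and 101 CPM and the receptor Lifr 109, 89.2 and 151 CPM, both inside the line.

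Other growth pathways had called members on both sides or few of them, beside 11.0% higher and 8.06% lower of all tested genes. Notch1 and Notch3 were the 2 higher of 19 Notch genes, at 61.3, 86.4 and 128 CPM and 61.8, 141 and 196 CPM, and no member was lower. The call of Notch1 ended with upper-quartile factors. In the insulin-like growth factor axis 5 were higher and 3 lower of 18. Igfbp4 and Igfbp2, secreted binding proteins, stood at 14.3, 58.1 and 204 CPM and 213, 392 and 746 CPM, and the receptors Igf1r and Insr at 18.4, 35.2 and 42.3 CPM and 13.1, 17.5 and 33.9 CPM. Igfbp5 stood at 9.51, 5.25 and 1.74 CPM and the RNA-binding gene Igf2bp1 at 664, 598 and 311 CPM, both lower. In the hedgehog list the target Gli1 was lower at 58.7, 35.9 and 22.6 CPM, the target Ptch1 lay flat at 159, 145 and 169 CPM, and the co-receptor Boc was higher at 2.22, 3.95 and 12.2 CPM. Among retinoic acid genes Cyp26a1, which degrades it, stood at 7.77, 0.156 and 0.759 CPM and the receptor Rarg at 219, 122 and 80.7 CPM.

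**Figure D4:**
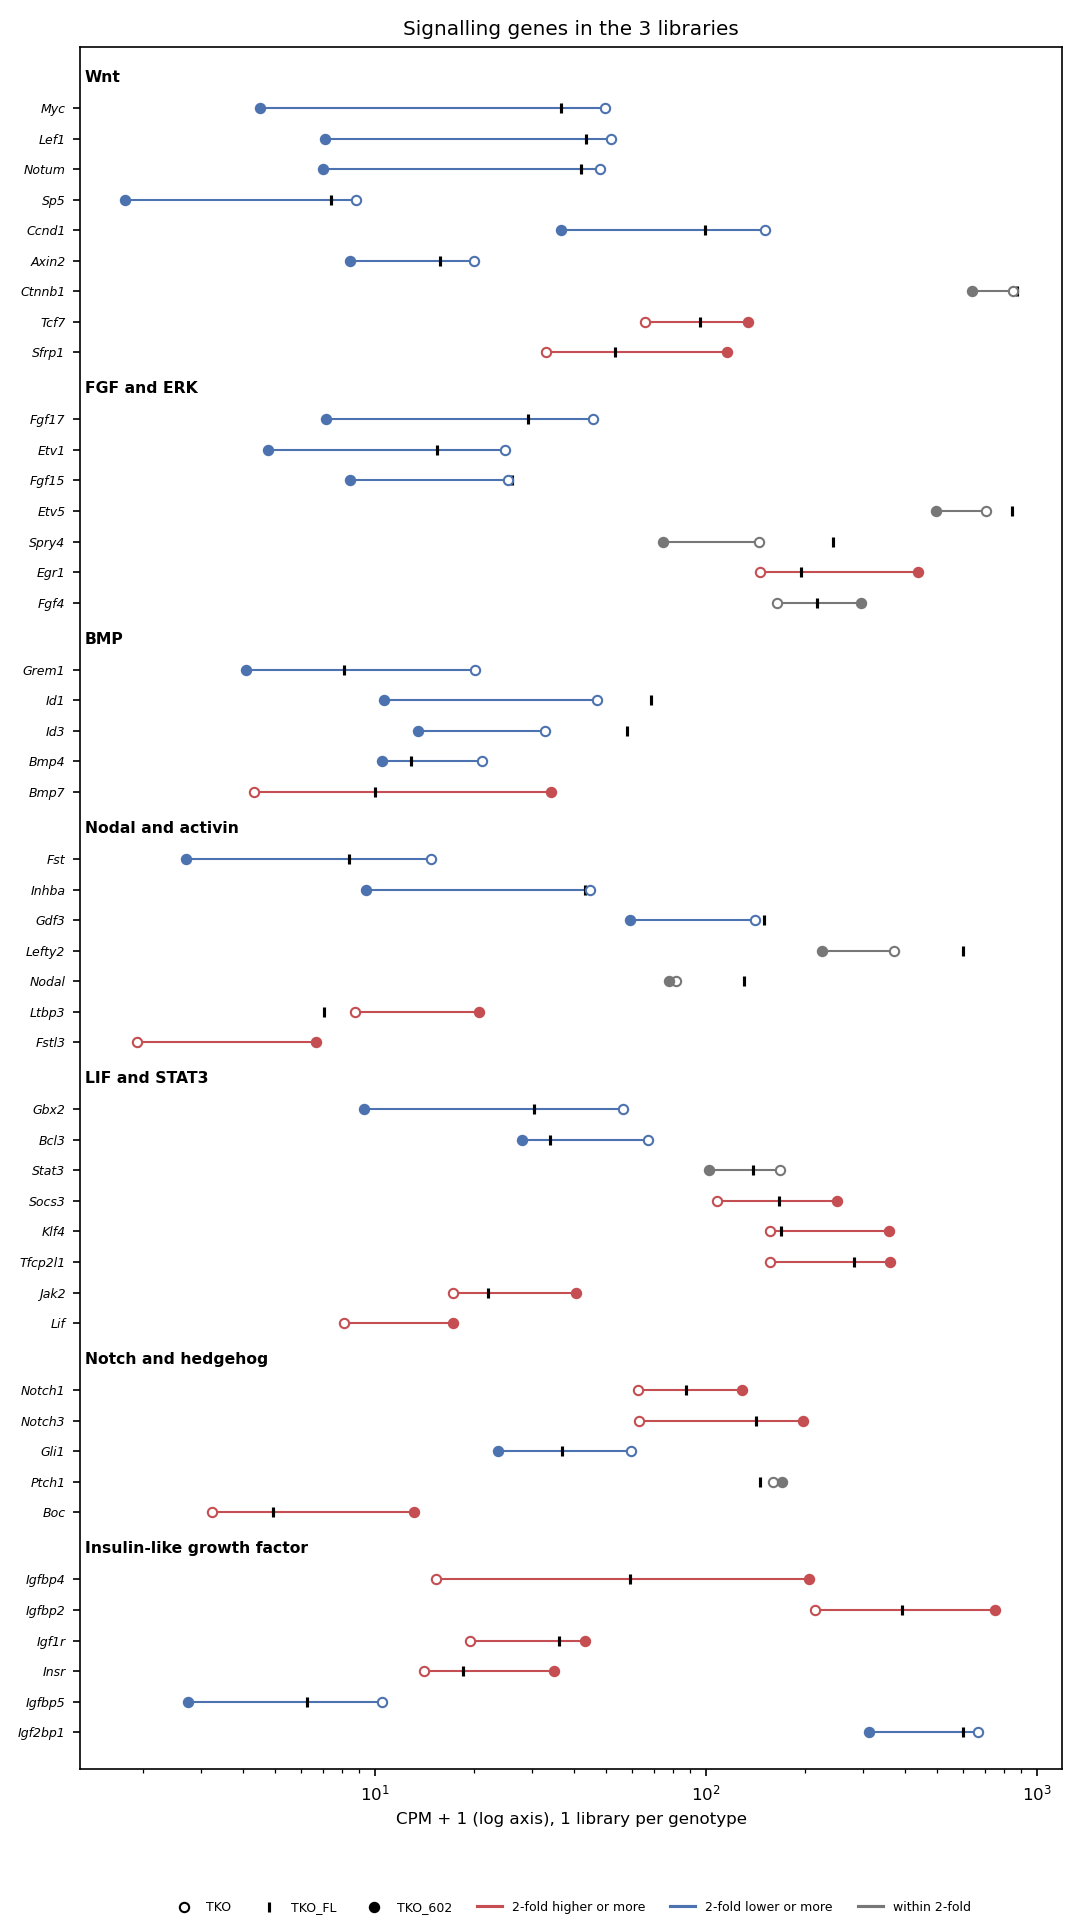
CPM + 1 on a log axis for genes of 7 signalling pathways in TKO (open circle), TKO_FL (tick) and TKO_602 (filled circle), 1 library each, coloured as in the plot of growth genes. Myc, Lef1, Notum and Fgf17 lie lower in TKO_602, and Bmp7, Igfbp4 and Sfrp1 lie higher.

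The pluripotency list split. Of 30 tested core members 6 were higher and 8 lower, and the median was -0.07. Pou5f1, Sox2 and Nanog, the core factors, lay inside the line at 1386, 1290 and 1168 CPM, at 499, 577 and 589.7 CPM and at 439, 683 and 518 CPM. Pecam1, an adhesion receptor of naive cells, had the largest difference of the list, at 36.1, 89.5 and 228 CPM, and also higher were Tcl1 at 39.3, 71.2 and 110.1 CPM and Tbx3 at 50.7, 49.4 and 112 CPM. Dppa5a, an RNA-binding protein, had 1144, 1632 and 2441 CPM. On the lower side stood Lin28b and Lin28a, blockers of let-7 maturation, at 74.2, 62.9 and 14.6 CPM and 503, 387 and 199.7 CPM, Nr0b1, an orphan receptor, at 157, 204 and 52.0 CPM, and Zfp57, the zinc finger protein that protects imprints, at 247, 170.0 and 77.7 CPM. Its corepressor gene Trim28 stood at 2337, 1753 and 1101 CPM.

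Formative genes, which mark cells on the way from naive to primed pluripotency, leaned lower. None of 25 tested members was higher and 14 were lower, with a median of -1.07. Foxd3 stood at 64.9, 52.6 and 11.6 CPM, Otx2 at 50.1, 43.9 and 14.2 CPM, Pou3f1 at 47.3, 27.3 and 15.4 CPM and Grhl2 at 96.1, 64.9 and 37.1 CPM. Fgf5, the usual marker of this state, was low in all 3 libraries, at 1.83, 2.55 and 0.179 CPM, and its call ended with a pseudocount of 5. Tead2 had the largest value above 0, at 94.0, 104 and 144 CPM, inside the line.

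Primitive endoderm genes leaned lower too, and here TKO_FL was also low. Of 28 tested members 16 were lower and none higher (median -1.29). Gata4 and Gata6, the lineage factors, stood at 35.2, 4.84 and 10.8 CPM and at 21.7, 1.56 and 10.0 CPM, and the call of Gata6 ended with a pseudocount of 5 and by library size alone. The endocytic receptors Cubn and Lrp2 and their adaptor Dab2 stood at 165, 13.4 and 23.8 CPM, at 204, 49.8 and 39.2 CPM and at 97.8, 13.5 and 14.5 CPM. The basement membrane genes Lama1 and Col4a1 had 647, 103 and 149 CPM and 609, 86.7 and 224 CPM. The 6 fixed endoderm markers summed to 198, 29.2 and 46.5 CPM. In a bulk library fewer cells of a type and less RNA per cell cannot be told apart. Apoe and Nid1, which other cells also make, lay inside the line at 402, 579 and 682 CPM and 221, 188 and 314 CPM.

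Genes of the 2-cell stage, which rare cells of such cultures express, were low. Of 24 listed genes 9 were tested, and 6 of them were lower in TKO_602. Zfp809, a repressor of retroviral elements that is also on the list, lay inside the line at 45.3, 44.7 and 23.8 CPM. It made up most of the list's summed levels of 66.6, 62.5 and 26.2 CPM. Zscan4a stood at 2.75, 1.72 and 0.134 CPM and Zscan4c at 2.46, 1.72 and 0.0893 CPM, and Zscan4d had 35 reads in TKO and none in TKO_602. The Zscan4 genes are near-identical copies, so the split between them is uncertain, and the calls of these low genes ended with a pseudocount of 5. The list median was -1.43, and -1.65 with Zscan4d set to its bound.

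Neuronal genes had 13 lower members and 1 higher of 35 (median -0.50). The netrin gene Ntn1 stood at 52.9, 30.1 and 4.04 CPM, the neuronal tubulin gene Tubb3 at 91.6, 78.2 and 14.6 CPM and the neurofilament genes Nefm, Nefl and Ina at 24.3, 7.49 and 3.35 CPM, at 77.7, 40.5 and 15.3 CPM and at 130.0, 159 and 22.2 CPM. The neural progenitor genes Pax6 and Sox1 lay inside the line at 24.6, 31.2 and 13.9 CPM and 11.8, 5.88 and 9.62 CPM. Ephb2, an ephrin receptor, was the higher one at 12.5, 27.1 and 40.3 CPM. The Tagln and Acta2 genes of contractile cells are counted as actin and as feeder genes. Feeder markers were mixed, with 7 lower and 1 higher of 29 and summed levels of 2969, 2724 and 3096 CPM over the list. S100a4 stood at 25.5, 10.8 and 2.63 CPM, Cd44 at 52.8, 25.7 and 9.59 CPM, Acta2 at 58.4, 18.5 and 17.0 CPM and Thy1 at 43.3, 30.7 and 17.1 CPM, while Col1a1 and Col1a2, the main fibroblast collagens, lay flat between TKO and TKO_602 at 163, 79.0 and 172 CPM and 122, 74.0 and 110.2 CPM. The part of feeder cells in the lower actin, adhesion and matrix values was not tested. Among matrix genes 9 of 37 were higher and 1, the gene of tenascin C, was lower. Spock2, a proteoglycan, stood at 3.81, 8.99 and 26.2 CPM and Mfge8, an adhesive glycoprotein, at 64.2, 98.2 and 202 CPM. The higher collagen genes were Col13a1, Col15a1, Col17a1, Col22a1, Col26a1 and Col2a1, and all their calls ended with a pseudocount of 5. Those of Col22a1 and Col2a1 also ended with upper-quartile factors.

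Genes of other lineages went both ways, beside 11.0% higher and 8.06% lower of all tested genes. Of 12 mesoderm genes 5 were lower and none higher (median -0.45), with the endothelial receptor gene Kdr at 7.48, 6.03 and 0.982 CPM and Etv2, the factor that starts blood vessel fate, at 5.41, 2.76 and 0.602 CPM, a call that ended with a pseudocount of 5. Of 12 blood and endothelial genes 3 were higher and 2 lower, with von Willebrand factor, from Vwf, at 13.7, 31.2 and 45.5 CPM and the stem cell factor receptor Kit at 51.6, 93.3 and 141 CPM on the higher side. Of 19 trophoblast genes 5 were higher and 2 lower, with the homeobox gene Esx1 at 0.917, 4.73 and 9.66 CPM. Epithelial genes went both ways, with 5 higher and 6 lower of 33 keratin and junction genes. Among them Krt7 stood at 0.917, 1.98 and 11.0 CPM and the tight junction gene Cldn7 at 17.8, 37.6 and 44.1 CPM, against the gap junction gene Gja1 at 159.7, 104 and 41.7 CPM and the desmosome gene Jup at 272, 273 and 106 CPM. Of 28 integrin and adhesion genes 4 were lower and 1 higher, with Itga1 at 5.99, 2.24 and 0.491 CPM and Itgb4 at 2.61, 4.32 and 11.2 CPM. Targets of YAP had 2 higher and 3 lower of 22, with Amot, which holds YAP outside the nucleus, at 43.5, 11.0 and 11.9 CPM.

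Germline genes leaned higher in TKO_602. Of 37 germ cell regulators 12 were higher and none lower, with a median of 0.67, and of 27 meiosis genes 8 were higher and 1 lower (median 0.26). Stra8, which starts meiosis on a retinoic acid signal, stood at 4.97, 18.3 and 30.9 CPM and Sohlh2, a factor of early germ cells, at 16.0, 44.9 and 86.7 CPM. Dazl and Ddx4, RNA-binding markers of germ cells, lay inside the line at 82.1, 88.5 and 135 CPM and 16.6, 24.4 and 23.7 CPM. Meiob, which binds single-stranded DNA in meiotic recombination, stood at 0.772, 7.44 and 20.3 CPM. Its log2 difference was 3.58 with 1 CPM added, and the interval of the plain ratio was 3.72 to 5.93. The axis gene Sycp3 stood at 2.03, 9.15 and 15.4 CPM, and the meiotic cohesin genes Smc1b, Rec8 and Stag3 at 24.5, 62.9 and 109.6 CPM, at 7.05, 22.6 and 28.3 CPM and at 77.1, 113 and 166 CPM. Meioc, which keeps cells in meiotic prophase, had 16.5, 40.2 and 51.8 CPM. In each of these 6 meiosis genes TKO_FL lay between TKO and TKO_602. Sycp1, of the central region, lay inside the line at 10.7, 9.57 and 8.50 CPM, and Syce1 was the lower member at 20.8, 20.5 and 9.86 CPM, a call that ended with a pseudocount of 5, by library size alone and after thinning. Of 12 tested Rhox genes, a homeobox cluster of the reproductive tract on the X chromosome, 3 were higher and none lower (median 0.67), with Rhox13 at 4.01, 6.19 and 12.7 CPM and Rhox9 at 2.80, 6.76 and 8.57 CPM, calls that ended with a pseudocount of 5. The piRNA pathway, which silences transposons in germ cells, had 4 higher and none lower of 23 (median 0.28). The higher ones were Pld6, Rnf17, Tdrd7 and Tdrkh, and all 4 calls ended with a pseudocount of 5. That of Rnf17 also ended with median-of-ratios or upper-quartile factors and after thinning.

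Promoters of 4 of these meiosis genes are shown because germline promoters often carry E-box and E2F-type motifs. Each run is the 250 bases before the gene's start, 5′ to 3′ on the gene's strand, from the RefSeq table of GRCm38.p6, the same build as mm10. Capitals mark CACGTG, the E-box, and GCGGGAAA, an E2F-type motif, searched on both strands. Sycp3 lies at chr10:88459337-88459586, Stag3 at chr5:138280259-138280508 and Meioc at chr11:102665335-102665584, all on the plus strand, and Sycp1 at chr3:102936101-102936350 on the minus strand.
Sycp3: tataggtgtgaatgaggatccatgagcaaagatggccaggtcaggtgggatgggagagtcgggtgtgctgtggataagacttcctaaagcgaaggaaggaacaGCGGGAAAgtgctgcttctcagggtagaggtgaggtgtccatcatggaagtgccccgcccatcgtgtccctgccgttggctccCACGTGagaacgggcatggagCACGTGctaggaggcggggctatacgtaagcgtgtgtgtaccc
Stag3: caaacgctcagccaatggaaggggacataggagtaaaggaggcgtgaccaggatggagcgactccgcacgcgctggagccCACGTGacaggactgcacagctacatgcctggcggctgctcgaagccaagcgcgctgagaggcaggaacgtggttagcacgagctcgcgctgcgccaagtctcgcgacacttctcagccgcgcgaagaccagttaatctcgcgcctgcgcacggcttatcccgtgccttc
Meioc: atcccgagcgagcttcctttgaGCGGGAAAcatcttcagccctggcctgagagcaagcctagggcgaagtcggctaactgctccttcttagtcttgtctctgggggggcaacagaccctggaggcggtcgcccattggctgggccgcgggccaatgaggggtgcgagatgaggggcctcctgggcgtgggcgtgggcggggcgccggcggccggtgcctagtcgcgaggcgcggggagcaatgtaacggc
Sycp1: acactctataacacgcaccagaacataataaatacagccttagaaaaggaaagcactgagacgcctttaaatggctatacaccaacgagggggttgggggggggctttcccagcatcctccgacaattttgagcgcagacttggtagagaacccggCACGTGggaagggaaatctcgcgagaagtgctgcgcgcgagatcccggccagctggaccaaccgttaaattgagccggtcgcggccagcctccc
Over the 300 bases from 250 before to 50 after the start, 6 of the 22 meiosis genes with an entry held CACGTG and 4 held GCGGGAAA, against 7.24% and 1.11% of all 27025 promoters of that length. Of the 6 holders of CACGTG, Sycp3 and Stag3 were past the line, and Hormad1, Rec114, Stk31 and Sycp1 were inside it. All 4 promoters shown hold a marked motif, while Rec8, also past the line, held neither over the 300 bases. Over the same 300 bases CACGTG was held by 8 of 18 piRNA, 7 of 22 lysosomal and 6 of 23 ribosome biogenesis genes with an entry. It was held by 5 of 59 respiratory complex genes and 0 of 25 Wnt genes. GCGGGAAA was held by 7 of 37 cell cycle genes and 0 of 18 piRNA genes. The 27025 promoters include those of genes that were not tested here, and the lists named were picked from the 55. No enrichment is read from these shares. A match is a description of the letters and not a bound site.

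Genes outside the germline held the same E-box. The 250-base runs of Nop2, a ribosomal RNA methyltransferase gene of the biogenesis list inside the line at 285, 227 and 152 CPM, of Tyms and of Igfbp2 are shown for that reason, with CACGTG in capitals. They lie at chr6:125131633-125131882 on the plus strand, chr5:30073626-30073875 on the minus strand and chr1:72824230-72824479 on the plus strand.
Nop2: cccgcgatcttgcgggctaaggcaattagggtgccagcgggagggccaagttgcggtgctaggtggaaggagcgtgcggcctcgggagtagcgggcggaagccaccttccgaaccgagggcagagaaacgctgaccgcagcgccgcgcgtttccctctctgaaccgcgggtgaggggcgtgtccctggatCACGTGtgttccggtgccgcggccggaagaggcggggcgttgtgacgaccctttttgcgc
Tyms: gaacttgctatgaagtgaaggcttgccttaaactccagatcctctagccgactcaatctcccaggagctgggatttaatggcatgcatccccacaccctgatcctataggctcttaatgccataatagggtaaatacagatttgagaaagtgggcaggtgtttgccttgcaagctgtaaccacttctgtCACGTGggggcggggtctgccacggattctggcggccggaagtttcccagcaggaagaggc
Igfbp2: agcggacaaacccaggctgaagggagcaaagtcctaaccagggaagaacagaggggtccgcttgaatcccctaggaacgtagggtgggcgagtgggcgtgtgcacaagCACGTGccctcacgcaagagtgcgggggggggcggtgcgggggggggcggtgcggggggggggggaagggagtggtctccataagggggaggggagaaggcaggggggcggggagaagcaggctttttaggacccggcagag
Tyms, at 98.6, 84.2 and 22.7 CPM, was lower and Igfbp2, at 213, 392 and 746 CPM, higher. Only 23 of 30 biogenesis genes and 10919 of 13748 tested genes (79.4%) had an entry in the promoter table, and 829 of the 1108 lower genes (74.8%). A comparison of promoter content between higher and lower genes is void at that coverage and none is given.

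Imprinted genes, which are read from 1 parental copy under the control of DNA methylation, were lower more often than higher. This lay mainly in the genes listed as paternally expressed. Of 28 genes listed as paternally expressed 8 were lower and 2 higher (median -0.62). Of 27 listed as maternally expressed 3 were lower and 1 higher (median -0.30), beside 11.0% higher and 8.06% lower of all tested genes. Peg10, a placental gene derived from a retrotransposon, stood at 694, 519.9 and 114 CPM, Mest at 207, 135 and 48.4 CPM and Impact at 329, 333 and 151 CPM. Zdbf2 stood at 206, 143 and 55.2 CPM. It is known as paternally expressed but is on both lists, and is counted among the lower genes of each. Apart from it, the lower genes listed as maternally expressed were Rian and Mirg. The maternally expressed non-coding genes Rian and Mirg of one cluster had 425, 496 and 159.8 CPM and 22.6, 17.9 and 4.31 CPM, and Meg3 of the same cluster lay inside the line at 203, 219.7 and 103 CPM. Sgce, next to Peg10 and paternally expressed like it, went the other way at 3.38, 10.5 and 12.2 CPM. H19 lay inside the line at 179.5, 131 and 146 CPM and its neighbour Igf2 was higher at 16.2, 11.6 and 34.4 CPM, a call that ended with a pseudocount of 5, with upper-quartile factors and after thinning. Counts do not tell the parental copies apart.

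**Figure D5:**
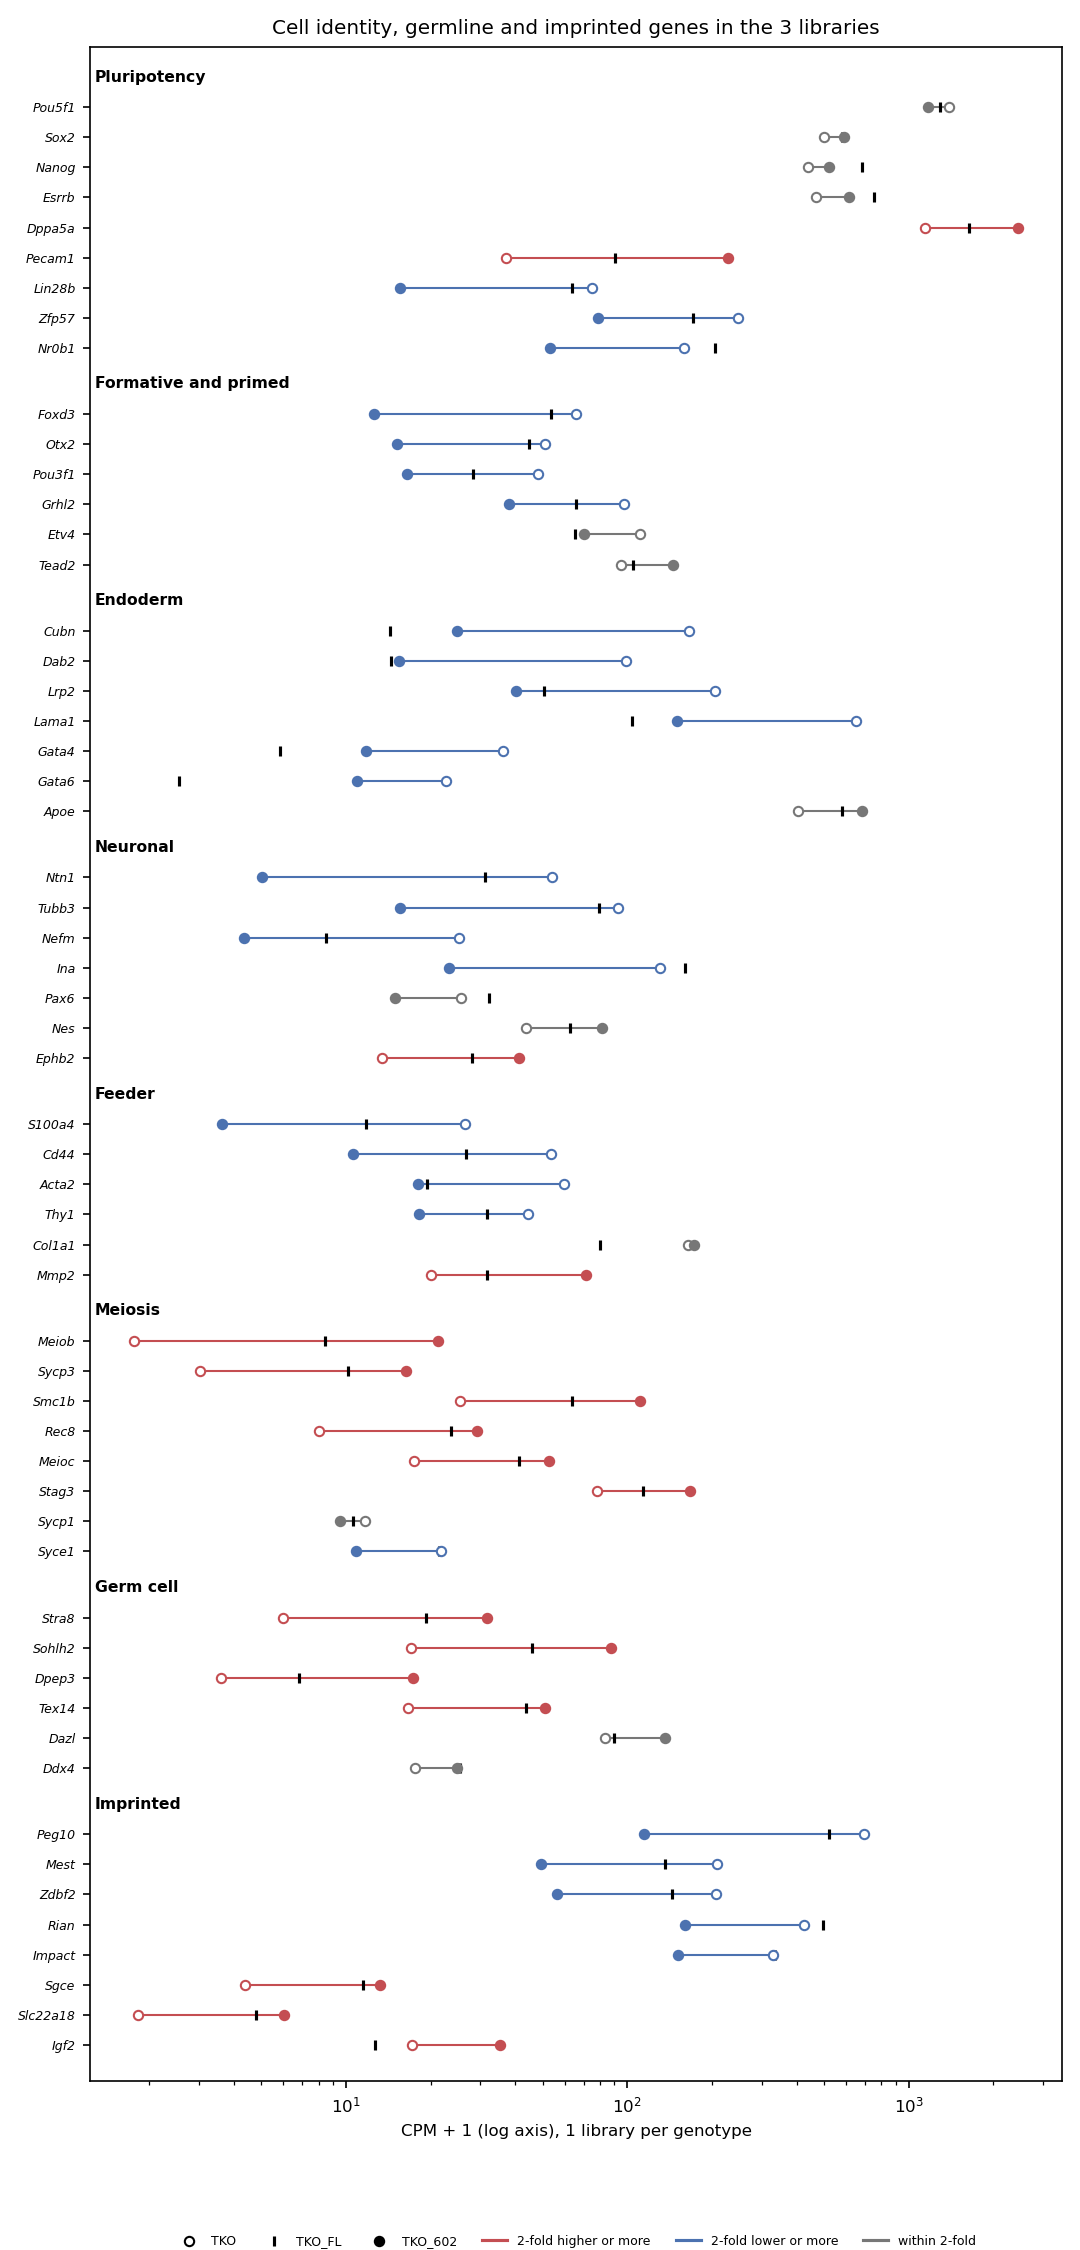
CPM + 1 on a log axis for pluripotency, lineage, germline and imprinted genes in TKO (open circle), TKO_FL (tick) and TKO_602 (filled circle), 1 library each, coloured as in the plot of growth genes. Endoderm genes other than Apoe lie lower in both TKO_FL and TKO_602 than in TKO, and meiosis genes other than Sycp1 and Syce1 lie highest in TKO_602.

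Cell cycle genes were mostly inside the line, with 3 higher and 6 lower of 49 and a median of 0.08. Of all tested genes 11.0% were higher and 8.06% lower. The lower ones act before or at the start of replication: Ccnd1 and Ccnd2, D-type cyclins, at 150.4, 98.7 and 35.6 CPM and 94.8, 44.2 and 19.5 CPM, their kinases Cdk4 and Cdk6 at 495, 409 and 233 CPM and 54.7, 49.5 and 20.6 CPM, Ccne1, cyclin E1, at 329, 178 and 135 CPM and E2f3 at 76.4, 84.2 and 34.4 CPM. The higher ones were Top2a, the topoisomerase of dividing cells, at 1015, 1210 and 2107 CPM, the phosphatase Cdc25b at 37.1, 35.1 and 75.5 CPM and the inhibitor Cdkn2c at 3.33, 1.82 and 8.08 CPM. The calls of Top2a and Cdc25b ended with upper-quartile factors and those of Cdc25b and Cdkn2c with a pseudocount of 5, and that of Cdc25b also with median-of-ratios factors. Cdk1 and Ccnb1 of mitosis lay flat at 197, 176 and 192 CPM and 531, 563 and 514 CPM.

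Most chromatin genes lay inside the line, as did most tested genes, of which 11.0% were higher and 8.06% lower. Of 36 Polycomb genes 2 were lower and 3 higher. Epop, a stem cell partner of the complex that methylates histone H3 lysine 27, stood at 381, 224 and 81.5 CPM, and among the methyltransferases Ezh2 lay inside the line at 211, 213 and 187 CPM and Ezh1 was higher at 32.9, 53.9 and 98.5 CPM. Phf19, which guides the complex to CpG islands, stood at 10.4, 20.6 and 32.6 CPM. Of 29 demethylase and acetylation genes 4 were higher and 1 lower, and all 4 were deacetylases outside class I: Hdac7 at 5.84, 8.63 and 40.6 CPM, Hdac11 at 4.88, 4.94 and 21.9 CPM, Hdac9 at 1.16, 3.33 and 6.31 CPM, whose call ended with a pseudocount of 5, and Hdac5 at 38.0, 57.6 and 95.8 CPM. The class I genes Hdac1 and Hdac3 had 164, 148 and 86.6 CPM and 68.1, 65.9 and 69.0 CPM, both inside. Interferon genes had 8 lower and 2 higher of 34, with the GTPase gene Irgm1 at 26.4, 26.3 and 3.70 CPM, the RNA sensor gene Ddx58 at 55.1, 48.4 and 13.5 CPM and the signalling gene Stat2, a higher one, at 18.0, 11.9 and 61.8 CPM.

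Some genes past the line were neighbours. Windows of 10 neighbouring tested genes with at least 6 past 2-fold in 1 direction formed 7 runs in mm10, 5 of them higher and 2 lower. Of all tested genes 11.0% were higher and 8.06% lower, and the number of runs that chance alone would give was not tested. Each run was trimmed to begin and end at a called gene, which raises its share of called genes. On chromosome 4 (145464210 to 147702631) 10 of 17 tested genes were lower, most of them zinc finger genes of one cluster such as Zfp990, Zfp980 and Zfp600, with Rex2 at 106, 96.9 and 36.0 CPM. On chromosome 3 (90603770 to 93564645) 7 of 8 were lower, with S100a4, S100a6 at 98.3, 47.1 and 44.4 CPM and S100a10 at 187, 113 and 66.0 CPM, calcium-binding proteins, beside genes of the skin barrier. On the X chromosome (73086293 to 73290515) 6 of 9 were higher, all of the Xlr family, with Xlr3a at 24.9, 38.0 and 86.8 CPM and Xlr5a at 2.03, 4.84 and 13.6 CPM. Zinc finger and Xlr members are near-identical to each other, so their split is uncertain. The run on chromosome 10 (59949675 to 61147684) held Ddit4 at 51.5, 54.2 and 134 CPM, Spock2, and Psap, a lysosomal precursor, at 156, 209 and 340.4 CPM, with 8 of 12 higher. The other 3 higher runs lay on chromosomes 11, 12 and 15, and the one on 12 held Tcl1.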

How the data were processed

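The deposited gene counts of 3 RNA libraries were used. Per the file headers the authors made these counts with featureCounts 2.0.6 and the refGene annotation of mm10, with no option for strand, for joint counting of mates or for multi-mapping reads. Per the submitters' processing notes Trim Galore, HISAT2, SAMtools and Subread were also used. A second deposited table, a signal scaled by the authors to transcript length, served only to find the number of fragments in TKO (10860312, a median of 1.95 reads per fragment). The count table holds 11 other library columns, which were not used.

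Counts were scaled to CPM with TMM factors (edgeR 4.0.16, R 4.3.3). Genes with at least 1 CPM in TKO or TKO_602 were kept, and a difference of log2(CPM + 1) of at least 2-fold was called. Each interval is an exact 95% binomial one on fragments, taken as reads divided by 2, with no pseudocount, and covers counting error only. The calculation was tested on simulated data. Other steps used Python 3.11.15, numpy 2.4.6, pandas 2.3.3, scipy 1.17.1 and matplotlib 3.10.9. Alternatives were other scalings, pseudocounts and filters, and thinning of TKO_602 to the total of TKO.

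The members and lists were chosen with earlier results of these data known. Genes were named by rule: the DNA methylation list, the 25 highest and 25 lowest log2 differences among genes of at least 5 CPM and 200 bases, the 15 largest gains and losses in CPM, from each list up to 10 members with the largest differences, up to 4 flat members above 50 CPM and every called member against the list median, and the genes nearest the 2-fold line. Apoe, Asns, Axin2, Bnip3, Col4a1, Dusp6, Ezh2, Fasn, Fgf4, Fzd2, Gata4, Gata6, Nop2, Pax6, Pou5f1, Psat1, S100a10, S100a6, Sox1, Sox2, Spry4, Sycp1, Tbp, Tcf7l1, Wls and the genes at 0 in a library were named outside it, after their values were seen. Some genes that the rule names are not reported here.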

Additional observations from a re-analysis of the deposited data

How the results depend on the processing

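No paired analysis was possible because each genotype has 1 library, and for the same reason no library could be left out. With a pseudocount of 5 the counts were 695 higher and 517 lower genes, and 88 list members were higher. The list medians were then -0.84 for formative, -0.96 for primitive endoderm, -0.31 for paternally expressed imprinted, 0.43 for LIF, 0.36 for p53 and 0.56 for hypoxia genes. With a pseudocount of 0.1 there were 2002 higher and 1470 lower genes, and the median of the 2-cell list was -3.24. With a minimum of 5 CPM the medians were -0.90 for 2-cell, -1.44 for primitive endoderm, 0.58 for trophoblast, -1.93 for mesoderm, 0.74 for blood and endothelial, 0.51 for retinoic acid, 0.57 for insulin-like growth factor, 0.63 for immediate early, -0.21 for interferon and 1.44 for Hox genes, on fewer genes tested. The 2-cell value equalled that of Zfp809 and the Hox value that of Hoxc13, so each can rest on 1 gene. By library size alone there were 1745 higher and 964 lower genes, all genes shifted by 0.08, and the medians were 0.01 for core pluripotency, 0.51 for glycolysis, 0.24 for ribosomal proteins, -0.80 for ribosome biogenesis, -0.40 for histone variants and -0.07 for reference genes. With upper-quartile factors the ribosomal protein median was 0.11. Of the list medians, 416 values under an alternative stayed close to the main one and 24 moved. Apart from the minimum of 5 CPM the cause was not tested. Depth limits genes near 1 CPM most.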

Other observations

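Lysosomal genes lay mostly above 0, with 3 higher and 1 lower of 30 tested, beside 11.0% higher and 8.06% lower of all tested genes. Laptm4b, a lysosomal membrane protein, stood at 64.0, 110.4 and 133 CPM in TKO, TKO_FL and TKO_602. Ctsh, the cathepsin H gene, was the lower one at 11.0, 1.72 and 4.84 CPM. Of 12 tested Hox genes 3 were higher and none lower, and all were low, with Hoxc13 at 2.70, 1.20 and 9.01 CPM. With a pseudocount of 5 the calls of Laptm4b, Ctsh and Hoxc13 ended, as did that of Laptm4b with upper-quartile factors and that of Ctsh by library size alone. Of 12 tested clustered protocadherin genes, which give neurons their surface identity, 2 were lower and 1 had a difference above 0. Of 30 genes that silence retroelements 3 were lower and none higher, beside the same shares of all tested genes. The corepressor gene Trim28 was among the lower ones.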
